A study of Homo sapiens with 16 samples.

Results

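Libraries labelled TRPM2 KO were compared with scrambled control (Scr) libraries of SH-SY5Y cells after 24 h of doxorubicin. SH-SY5Y is a human neuroblastoma line of sympathetic nervous system origin, and doxorubicin is an anthracycline that blocks topoisomerase II and damages DNA. The comparison held 8 of the 16 RNA sequencing libraries of the study, taken by their labels, 4 on each side. The libraries labelled TRPM2 KO (hereafter labelled KO) came from the clones KO11 and KO28, and the Scr libraries from Scr13 and Scr16, with 2 replicates of each clone. All were single-cell clones that had received a Cas9 guide vector together with a donor vector carrying GFP and puromycin resistance, and were grown under puromycin. The guide was directed at TRPM2 in KO11 and KO28 and was scrambled in Scr13 and Scr16. The dose of doxorubicin was 0.3 µM by the sample labels and the published account of these libraries, although the series description has 3 µM. Replicates of 1 clone share its origin, so the 4 libraries of a side stand for only 2 clones.

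TRPM2 is a calcium-permeable cation channel of the plasma membrane that opens in response to oxidative stress and ADP-ribose. Neuroblastoma cells are known to occupy an adrenergic state, with a sympathetic neuron program run by HAND2 and GATA factors, or a mesenchymal state, with matrix, adhesion and YAP1-related genes. Both states can be found in lines derived from 1 tumour. The question here was which functions and gene families differed between the labels once the drug had been given, apart from cell cycle and p53 target genes.

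The guide target is shown because it defines the label. Its 20 bases, in lower case, matched the TRPM2 transcripts of GENCODE 29 on the transcribed gene's own strand, and the 3 bases that follow, in capitals, are the AGG motif that Cas9 needs.

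TRPM2 guide target: gaggaaagctggctcggagcAGG

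The target lies on GRCh38 at chr21:44353718-44353737, within coding sequence of the first or the second exon of 5 TRPM2 transcripts. The gene itself spans chr21:44350163-44443081 on the plus strand.

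TRPM2 RNA was not lower in the libraries labelled KO. After doxorubicin, its level in labelled KO libraries was 1.22 and 1.83 normalized CPM in KO11 and 1.37 and 0.658 in KO28. In the Scr libraries it was 0.0594 and 0.0631 in Scr13 and 1.33 and 0.390 in Scr16. Normalized CPM are reads scaled to a common library total (CPM) and adjusted by the authors with a factor for each library. The labelled KO libraries thus lay above both Scr13 libraries and overlapped Scr16, with a difference of 0.69 ± 0.33 (SE) on the log2(normalized CPM + 1) scale (adjusted p = 0.249, limma; two-sided exact permutation p = 0.0857, where 4 against 4 allows no p below 0.0286). Without treatment, the labelled KO libraries held between 1.41 and 2.23 normalized CPM and the Scr libraries between 0 and 0.118. According to the methods of the study, the edit removed the start of the coding sequence and shifted the reading frame of what follows, and the clones were authenticated by RT-PCR and Western blotting. Reads were counted over the whole gene and not over the deleted stretch, so these values check neither the edit nor the protein, and groups are taken from the labels.

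The number of reads on genes ran from 10481177 to 16982973, with medians of 15976793 in labelled KO and 15773166 in Scr. Replicate 1 of Scr16 had the fewest reads and stood apart on the second principal component, with a score of 35.9 against scores between -21.9 and 5.05 in the other 7 libraries. The first component, with 39.3% of the variance, separated the labels. A floor of 3 reads corresponded to between 0.178 and 0.285 normalized CPM per library, and covers counting error only.

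The adrenergic identity of the line was visible in all 8 libraries. HAND2, GATA2, PHOX2A and DBH, which makes noradrenaline from dopamine, had at least 630 normalized CPM in each. TH, the first enzyme of catecholamine synthesis, was near the floor in both groups, between 0 and 1.13, and the granule protein CHGA did not exceed 1.52. The Schwann and glial marker S100B stayed at or under 0.478, and the endothelial marker VWF at or under 1.49.

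Of 14572 genes tested with limma, 1266 (8.69%) passed an adjusted p of 0.05, 659 (4.52%) of them higher and 607 (4.17%) lower in the labelled KO libraries. Differences of at least 2-fold on the log2(normalized CPM + 1) scale were found in 239 higher and 125 lower genes, and this scale understates the change of low genes. The 4 values of one group lay wholly above or below those of the other for 1132 of the 1266 called genes. Over all genes tested, the called ones included, this held for 1920 (13.2%). A small p favours such separation, so the count describes the calls and is no further support for them. The median difference over all genes tested was 0.01. Without KO11 replicate 1, 814 genes were called, and 510 and 575 without the clones KO11 and KO28, when 1 clone stood for the label. Leaving out any 1 labelled KO library also left 41 called genes untested, since genes below 1 normalized CPM in all Scr libraries then missed the filter of 4 libraries. Counts without a labelled KO library given below carry this limit. Of all genes tested, 49 were below 1 normalized CPM in every Scr library and 41 of them were called higher, and 31 were below it in every labelled KO library and 25 of them were called lower. Such genes were tested through 1 group alone, where they had to be high, so their calls support nothing about a list. Among those named below, the labelled KO group alone carried THBS2, LUM, MGP, CXCL12, CAPN6, CRIM1, DCN, COL13A1, ITGA5, ITGA11, SEMA3A, IGF2BP2, WNT5A, EGR2, OSMR, SYT12, GPX8, ABCC3, POU3F3 and NRIP1. The Scr group alone carried LRRC61, GTSF1, AC023824.6, ENSG00000275013, PARP14 and ZNF135. Genes outside the cell cycle and p53 target lists made up 91% of the calls, with 609 higher and 543 lower. Of the cell cycle list 63 of 148 tested genes were lower, and of the p53 target list 50 of 89 were higher and 1 lower. Protein-coding genes supplied 1188 of 12211 tested, and lincRNA and antisense genes 40 of 951. Called genes spanned a longer stretch of the genome, with medians of 44.1 kb for higher and 47.1 kb for lower genes, against 27.8 kb for genes not called. By chromosome, the share called higher ran from 1.88% on chromosome 19 to 7.76% on chromosome 5.

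**Figure D1:**
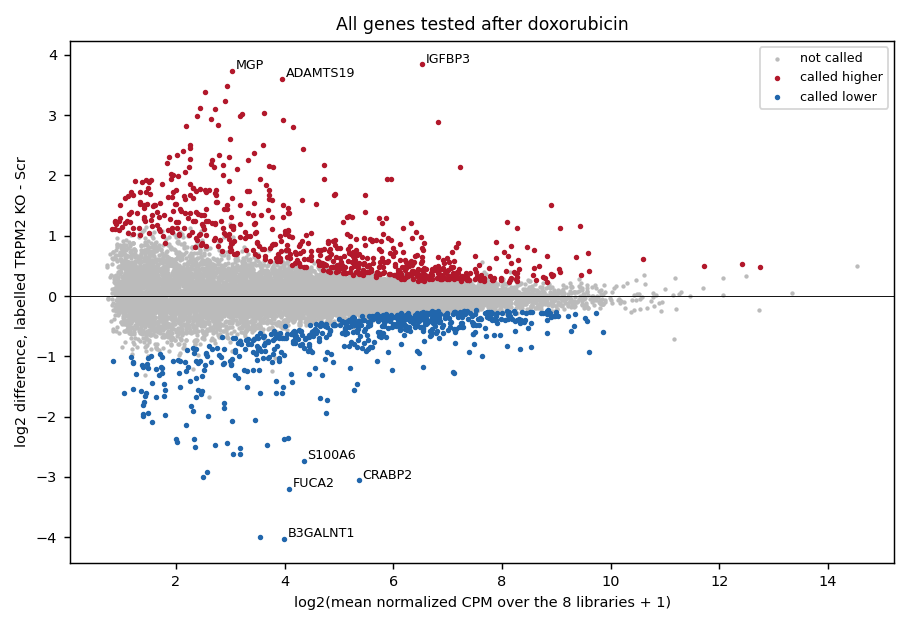
Each point is a gene, with its mean level over the 8 libraries after doxorubicin as log2(normalized CPM + 1) on the horizontal axis and the log2 difference between labelled TRPM2 KO and Scr on the vertical axis. The 659 genes called higher (red) and 607 called lower (blue) are spread over the whole range of levels, and IGFBP3 and B3GALNT1 lie at the upper and lower ends.

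Rises and falls are ranked by log2 difference on the scale of the tests. That scale understates the change of low genes, such as MGP and THBS2 below. On it, the largest rise was that of IGFBP3, which binds insulin-like growth factors outside the cell. Its level was 205 and 144 normalized CPM in KO11, 181 and 146 in KO28, 6.89 and 4.16 in Scr13 and 20.8 and 20.4 in Scr16. The lowest labelled KO library was thus several times the highest Scr library, and the log2 difference was 3.84 ± 0.30 (SE; adjusted p = 2.29e-08, limma). MGP, an inhibitor of calcification in the matrix, had between 12 and 16.7 normalized CPM in labelled KO and at most 0.252 in Scr, and ADAMTS19, a secreted metalloprotease, between 23.7 and 29.8 against at most 3.15. THBS2, a matrix glycoprotein, had 11.8, 8.94, 10.7 and 6.94 normalized CPM in the labelled KO libraries and no read in any of the 4 Scr libraries. Against a floor of 3 reads in each Scr library, THBS2 was at least 45.3-fold higher.

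CXCL12 and CCL2, chemokines that draw in leukocytes, were both low in Scr. CXCL12 had between 7.41 and 14.1 normalized CPM in labelled KO and between 0.119 and 0.505 in Scr (log2 difference 3.11). It passed the filter on low values through the labelled KO group alone, so its p is not given. CCL2 had between 11.7 and 22.5 against between 0.13 and 3.33 (3.02 ± 0.32; adjusted p = 1.38e-06, limma). The groups did not overlap for either. The remaining places among the 12 largest rises were taken by the calcium-binding protein S100A11 (3.48), the small matrix proteoglycan LUM (3.24), the calpain family member CAPN6 (3.11), the matrix glycoprotein TNC (3.03), the LIM-only transcription regulator LMO4 (2.99) and CRIM1 (2.99), a transmembrane protein that binds BMPs. Each value in parentheses is a log2 difference.

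Among the falls, several genes were nearly silent in the labelled KO libraries. B3GALNT1, a glycosyltransferase that builds globoside (GRCh38 chr3:161083883-161105384), had 1.02 and 0.126 normalized CPM in KO11 and 1.18 and 1.26 in KO28, against 31.5 and 24.3 in Scr13 and 29.5 and 30.4 in Scr16. LRRC61 (chr7:150322639-150338150) had at most 0.589 against at least 13.4, and GTSF1, a partner of the piRNA machinery of germ cells (chr12:54455950-54473602), at most 0.523 against at least 5.87. FUCA2, a secreted fucosidase (chr6:143494811-143511690), had between 1.45 and 3.35 against between 21.3 and 33.1. All 4 also had non-overlapping groups without treatment, where LRRC61 and GTSF1 had no read in any labelled KO library. The log2 differences after doxorubicin were -4.03 for B3GALNT1, -4.0 for LRRC61, -3.19 for FUCA2 and -3.00 for GTSF1.

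CRABP2, which carries retinoic acid to the nucleus, fell with the smallest adjusted p of the named genes. Its level was 8.89, 7.49, 7.39 and 7.35 normalized CPM in labelled KO and 79.2, 64.4, 84.3 and 61.9 in Scr (log2 difference -3.06 ± 0.14, SE; adjusted p = 5.38e-12, limma). The calcium-binding protein S100A6 had between 3.71 and 5.79 against between 31.0 and 44.4 (-2.73). RYR2, a channel that releases calcium from the endoplasmic reticulum, had between 1.08 and 1.47 against between 9.46 and 18.3 (-2.61), and PRPH, the peripheral neuron intermediate filament peripherin, at most 1.02 against at least 6.12 (-2.50). A share of 56.2% of PRPH's exonic bases lies opposite an antisense gene, and no strand setting was given for the counting. The cytokine receptor chain IL20RA (-2.62), the fatty alcohol enzyme FAR2 (-2.52) and 2 genes without a named function, AC023824.6 (-2.91) and ENSG00000275013 (-2.47), completed the 12 largest falls. ENSG00000275013 also differed between the Scr clones, with at most 2.85 in Scr13 and at least 14.8 in Scr16.

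**Figure D2:**
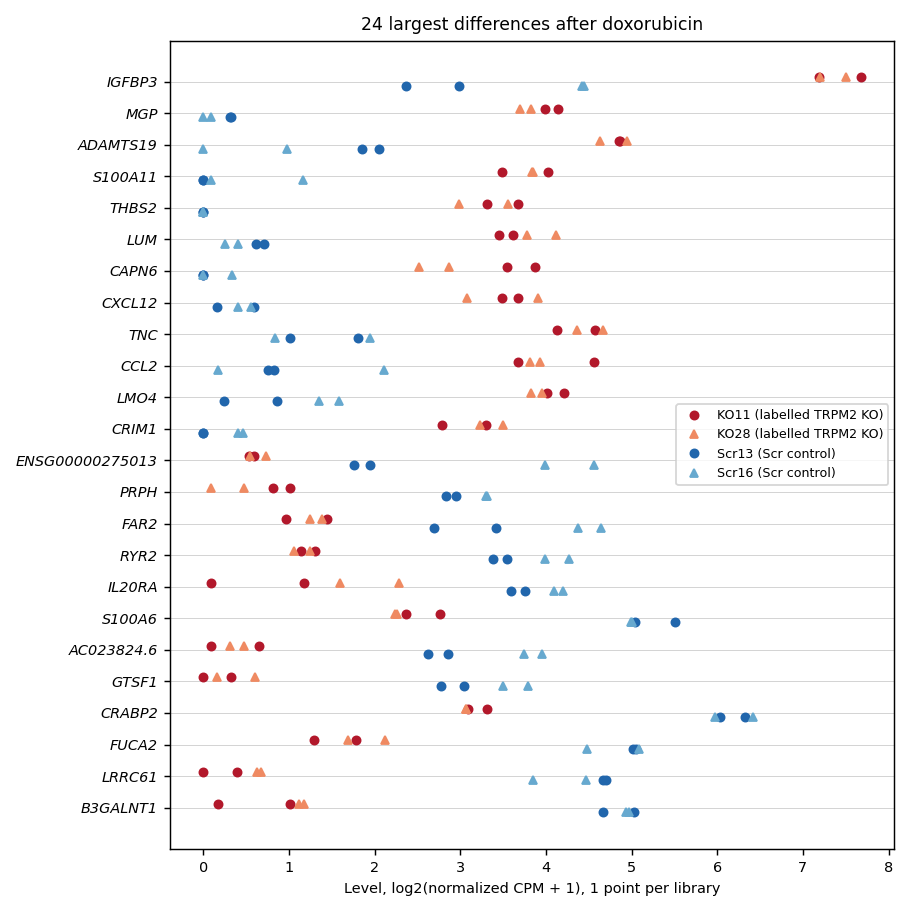
Levels of the 12 genes with the largest rises and the 12 with the largest falls after doxorubicin, as log2(normalized CPM + 1), with 1 point per library coloured by clone. In every row the 4 labelled TRPM2 KO points and the 4 Scr points form separate sets, from IGFBP3 at 205 normalized CPM in its highest library to THBS2 at 0 in all Scr libraries.

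Among 61 lists of gene functions and families, those with at least 10 tested members and the highest shares called higher, with and without members tested through 1 group alone, were the mesenchymal markers, the cadherins and the collagens. Lists share members, among them 5 of the 22 tested mesenchymal markers and 8 of the 23 tested imprinted genes, so 1 call can count in several lists. The mesenchymal markers of neuroblastoma had 12 of 22 tested members called higher and 2 lower, with a median log2 difference of 0.62 beside 0.01 over all genes. CCN1, a matricellular target of YAP1 signalling, had between 11.3 and 23.8 normalized CPM in labelled KO and between 1.32 and 3.64 in Scr (2.51). YAP1 itself, the growth-promoting coactivator held in check by the Hippo pathway, had between 9.39 and 14 against between 0.757 and 2.95 (2.18). FN1, fibronectin, had 244 and 145 in KO11, 349 and 217 in KO28, 50.5 and 26.4 in Scr13 and 105 and 46.7 in Scr16 (2.14 ± 0.26, SE; adjusted p = 8.77e-06, limma). Not every marker moved that way, since S100A6 fell, as did TWIST1, a transcription factor of the mesenchymal program, with between 177 and 213 in labelled KO and between 283 and 325 in Scr (-0.64). The counts of 12 and 2 were obtained without any 1 library as well.

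Levels of these markers also differed between replicates of 1 clone. The summed level of the list, FN1 and VIM were each higher in replicate 1 than in replicate 2 in all 4 clones, and at either number both labelled KO clones lay above both Scr clones. The summed level of the whole mesenchymal list was 1969 and 1658 normalized CPM in KO11, 2096 and 1869 in KO28, 1386 and 1270 in Scr13 and 1568 and 1441 in Scr16, with VIM, the intermediate filament vimentin, its most abundant gene. VIM, FN1, COL1A1 and COL3A1 each had their highest Scr value in Scr16 replicate 1 and their lowest in Scr13 replicate 2. For COL3A1 these values were 83.9 and 6.88 normalized CPM, and the labelled KO libraries ran from 154 to 215. In bulk RNA, fewer cells of a type and less RNA per cell cannot be told apart, and the part of such a mixture in the differences was not tested.

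The fibroblast, endothelial and immune list had 4 of 6 tested members called higher, all of them matrix genes (COL1A1, COL3A1, DCN and LUM), but DCN and LUM were tested through the labelled KO group alone. The count was 2 without any 1 of the 4 labelled KO libraries, when DCN and LUM were not tested, 2 with at least 10 reads in every library, 2 without clone KO11 and 1 without clone KO28. Its summed level was between 255.7 and 358.3 normalized CPM in labelled KO and between 86.4 and 172.9 in Scr, with COL3A1 the most abundant. All 6 tested members of this list stand in other lists as well, where their calls are counted again. None of the 4 tested Schwann and glial markers was called by limma or edgeR, and none had an unadjusted p under 0.05 with limma. The adrenergic core transcription factors had 3 of 23 called higher and 6 lower, with a median of -0.11 and a summed level between 6698 and 7232 normalized CPM in labelled KO and between 7130 and 7782 in Scr. MYCN, the oncogene of aggressive neuroblastoma, had between 7.04 and 9.68 against between 12.6 and 18.5 (-0.78). PBX3 (-0.65) and EYA1 (-0.66) fell as well, whereas TBX2 and HAND1 rose by 0.45 and 0.40 on the log2 scale.

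Collagens, the fibrous and sheet-forming proteins of the matrix, had 9 of 19 tested members called higher and none lower, with a median of 0.28. COL3A1 (2.88), COL11A1 (2.81) and COL5A1 (1.95) led. COL13A1 (1.92) had no read in 3 of the 4 Scr libraries and was tested through the labelled KO group alone; without it the collagens had 8 of 18 higher and a median of 0.19. Without Scr16 replicate 1 the median was 0.11, with 8 higher and 1 lower, and without clone KO28 5 were higher. Laminins, matrix glycoproteins and proteoglycans had 17 of 43 higher and 2 lower, NID1 and SDC2, with a median of 0.27. Besides THBS2, LUM and TNC, the proteoglycan DCN had between 6.33 and 8.04 normalized CPM in labelled KO and between 0.297 and 0.760 in Scr (2.45). Of the 17, 4 were tested through the labelled KO group alone, and without them 13 of 39 (33.3%) were higher, with a median of 0.16. The count of 17 became 11 with at least 10 reads in every library, 10 without KO11 replicate 1 or KO28 replicate 1, and 8 without clone KO11 or clone KO28.

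Matrix proteases, their inhibitors and crosslinkers moved in both directions, with 10 of 53 called higher and 5 lower. PLAT, the tissue plasminogen activator, had between 16.7 and 26.9 normalized CPM in labelled KO and between 2.08 and 4.69 in Scr (2.16), and SERPINE2 was higher too (1.69), although not with DESeq2 (adjusted p = 0.333). The 5 lower members were ADAMTS20, SERPINA5, ADAM22, ADAMTS9 and ADAMTS1. The 10 higher calls became 5 without KO11 replicate 1, 6 without KO28 replicate 2 and 6 with at least 10 reads in every library. They also became 6 with the mean of each clone in place of its 2 replicates. Integrins, the receptors that tie cells to matrix, had 5 of 17 higher (ITGA5, ITGA2, ITGA11, ITGA3 and ITGB1) and 2 lower (ITGA1 and ITGB5), and 3 higher without any 1 of the labelled KO libraries, when ITGA5 and ITGA11, tested through the labelled KO group alone, were not tested. The median of the integrins was -0.09, and 7 of 17 had a log2 difference above 0. Without ITGA5 and ITGA11, 3 of 15 were higher, with a median of -0.18. The 2 lower integrin calls became 1 without KO11 replicate 2. The collagen receptor subunit ITGA2 had between 40.2 and 51.1 normalized CPM against between 15.7 and 23.1 (1.23).

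**Figure D3:**
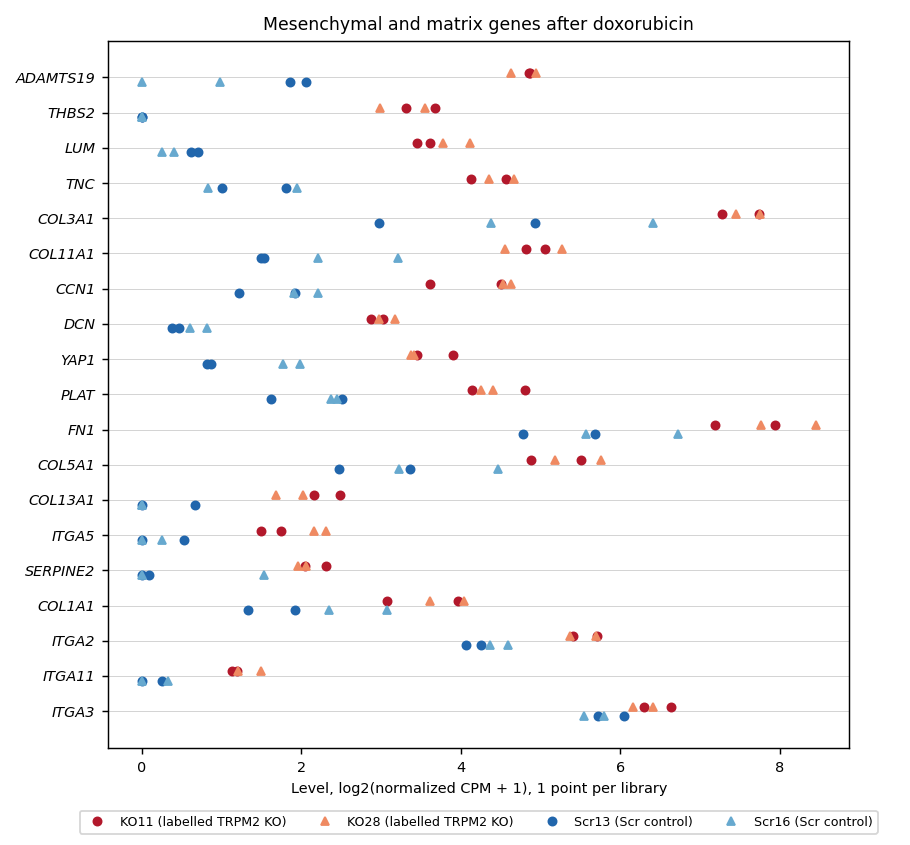
Levels of 19 mesenchymal, matrix, protease and integrin genes called higher, as log2(normalized CPM + 1), with 1 point per library coloured by clone. The labelled TRPM2 KO points lie to the right of the Scr points in every row, and the Scr points of COL3A1 run from 6.88 to 83.9 normalized CPM.

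Stretches of 3 promoters are shown because THBS2, YAP1 and ACTA2 rose in these lists and are 3 of the promoters that hold GGAATG, the core letters bound by TEAD factors, the DNA-binding partners of YAP1. They are RefSeq sequences on GRCh38.p14, written 5′ to 3′ on the strand of the gene, with matches of GGAATG or its reverse complement CATTCC in capitals and 30 bases on either side.

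THBS2 promoter, chr6:169253902-169253979, minus strand: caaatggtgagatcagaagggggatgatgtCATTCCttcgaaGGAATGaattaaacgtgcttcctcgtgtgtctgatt
YAP1 promoter, chr11:102110255-102110320, plus strand: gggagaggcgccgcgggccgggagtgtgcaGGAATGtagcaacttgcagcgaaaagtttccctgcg
ACTA2 promoter, chr10:88952921-88952986, minus strand: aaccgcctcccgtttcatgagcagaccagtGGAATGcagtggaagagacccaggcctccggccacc

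The THBS2 stretch holds 2 matches in opposite orientation, 103 and 91 bases upstream of the start. A promoter was matched for 35 of the 50 genes called higher in these lists, under 80%, so a share over the list is void. In the 250 bases upstream of the start, the letters were found on either strand in 6 of the 35, the others being ITGA5, ITGB1 and SPARC, and the AP-1 motif TGANTCA, searched on both strands too, in 1, ANXA2. Among the promoters of tested genes 12.8% hold GGAATG and 5.6% TGANTCA, and among all 35116 RefSeq promoters 11.9% and 6.57%. The shares were 17.5% and 8.73% for all genes called higher with a promoter, and 15.8% and 7.48% for those called lower. Matches are letters in a window, not sites of binding.

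Cadherins and other protocadherins, which join neighbouring cells, had the highest share of calls in 1 direction among the lists with at least 10 tested members, apart from the mesenchymal markers. Of 18 tested, 9 were called higher and none lower, with a median of 0.57. PCDH10 had 6.78 and 4.91 normalized CPM in KO11, 9.09 and 7.47 in KO28, 0 and 0.189 in Scr13 and 1.14 and 0.519 in Scr16 (2.50). CDH11, a cadherin of mesenchymal and some neural cells, had between 105 and 116 against between 40.8 and 56.7 (1.22), and PCDH9 between 41.3 and 53.8 against between 20.3 and 26.5 (1.03). Leaving out 1 library gave between 8 and 10 higher calls. No cadherin, collagen, semaphorin, immediate early or imprinted gene of these lists was called lower by limma or edgeR, while 2, 3, 2, 2 and 1 of them had an unadjusted p under 0.05 with limma on the lower side. The clustered protocadherins, in contrast, had members on both sides, with 5 of 34 higher and 3 lower. PCDHB10 rose (1.46) and PCDHB6 rose (0.91), whereas the 3 lower calls became 0 without either KO11 library, KO28 replicate 1 or Scr13 replicate 2, and the 5 higher ones 2 without KO11 replicate 1. Genes of these clusters are near copies or share exons, and their counts are uncertain for that reason.

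Axon guidance lists differed in their counts. Semaphorins, plexins and neuropilins had 8 of 29 called higher and none lower, with a median of 0.14 and, without Scr16 replicate 1, 8 higher and 2 lower. SEMA3A, a secreted repellent of axons, had between 2.15 and 5.18 normalized CPM in labelled KO and at most 0.454 in Scr (1.79), and was tested through the labelled KO group alone; without it 7 of 28 were higher. Its receptor NRP1 had between 16.4 and 23.3 against between 4.48 and 11.6 (1.31), and PLXNC1 between 11.3 and 14.8 against between 4.40 and 7.57 (1.00). Ephrins and Eph receptors had 3 of 15 higher, of which EPHB4 (0.94) and EPHA2 (0.73) kept their call without any 1 library, whereas EFNB1 did not without KO11 replicate 1 (adjusted p = 0.1, limma). Slits, netrins and their receptors had 3 of 20 higher, SLITRK6 (1.79), NTN4 (1.66) and SLIT2 (1.30), and 2 lower, among them SLIT1 (-0.75). Neuronal cell adhesion molecules had 4 of 34 higher and 5 lower, with ALCAM between 411 and 435 against between 164 and 243 (1.14) and CADM3 between 55.3 and 66.9 against between 99.5 and 133 (-0.94). Of the 4 higher ones, 1 was tested through the labelled KO group alone, and without it 3 of 33 were higher. The 4 higher calls became 7 without Scr16 replicate 1 and 2 without KO11 replicate 1, and the 5 lower ones became 2 without KO11 replicate 1 and 3 without KO11 replicate 2, KO28 replicate 2 or Scr13 replicate 1.

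Growth factor signalling was called in several families. Receptor tyrosine kinases and their ligands had 11 of 40 higher and 7 lower, with a median of 0.18. Of the 11, 1 was tested through the labelled KO group alone, and without it 10 of 39 were higher, with a median of 0.15. NTRK3, the neurotrophin-3 receptor TRKC, had 32.0 and 30.4 normalized CPM in KO11, 37.7 and 16.6 in KO28, 8.79 and 8.90 in Scr13 and 10.6 and 6.62 in Scr16 (1.59). The heparin-binding cytokine PTN had between 49.4 and 56.9 against between 18.0 and 25.9 (1.31). The neurotrophin receptor gene NTRK2 (1.24) was higher as well. GFRA2, the neurturin co-receptor, fell, with between 2.58 and 5.02 against between 15.8 and 33.8 (-2.37), and its ligand NRTN fell (-0.93), as did ALK (-0.66), a kinase that is mutated in some neuroblastomas.

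Of the IGF genes, 5 of 15 were higher and 2, IGFBP5 and IRS2, lower. Besides IGFBP3, the growth factor IGF2 had between 842 and 1249 normalized CPM against between 331 and 540 (1.16), and 75% of its exonic bases are shared with read-through and antisense genes. IGF2BP2, an RNA-binding protein, had no read in 3 of the 4 Scr libraries (1.89) and was tested through the labelled KO group alone, and without it 4 of 14 were higher. The 5 higher calls became 3 without KO11 replicate 1, KO11 replicate 2 or KO28 replicate 2.

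TGF-beta, BMP and GDF genes had 9 of 48 higher and 3 lower. BMP7, a ligand, had between 90.8 and 100 normalized CPM in labelled KO, 13.4 and 16.8 in Scr13 and 36.3 and 40.2 in Scr16 (1.94). ID4, an inhibitor of DNA binding induced by BMPs, was higher (1.56), and GDF7 was lower (-1.24). TGFBR2, the type II TGF-beta receptor, was called (1.72) although Scr16 replicate 1, at 6.84, lay within the labelled KO range of 5.67 to 9.03, and it was not called by edgeR or DESeq2 (8 of 23 alternatives lost the call, with a highest adjusted p of 0.448). Among Wnt genes, 4 of 37 were higher and 6 lower, with the ligand WNT5A listed without a read in the 4 Scr libraries and between 1.08 and 4.25 in labelled KO, and the antagonist DKK2 between 8.19 and 18.7 against between 0.946 and 1.88 (2.31). The 4 higher Wnt calls became 2 without KO11 replicate 1, KO28 replicate 1 or KO28 replicate 2, and the 6 lower ones 3 without either KO11 library, Scr13 replicate 2 or Scr16 replicate 2. With the mean of each clone in place of its 2 replicates, 2 Wnt genes were lower. Without members tested through the labelled KO group alone, WNT5A among them, 3 of 35 Wnt genes were higher. Notch genes had 3 of 25 higher, among them NOTCH1 (0.91) and MAML2 (1.61), and 1 lower, MAML3 (-0.47), with 2 lower without Scr13 replicate 2. None of 11 Hedgehog genes was called by limma or edgeR, and 3, all lower, had an unadjusted p under 0.05 with limma.

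Feedback inhibitors and immediate early genes of RAS-MAPK signalling, which are switched on within minutes of growth factor or stress signals, had 8 of 32 called higher and none lower, with a median of 0.16 and between 6 and 9 higher calls without 1 library. PHLDA1 had between 5.16 and 10.5 normalized CPM against between 1.14 and 2.26 (1.76), and the stress-induced transcription factor ATF3 between 17.5 and 27.5 against between 4.94 and 13.7 (1.08). The dual-specificity phosphatase DUSP2 was called (1.63) but lost its call under 6 of 23 alternatives, DESeq2 and leaving out either labelled KO clone among them (highest adjusted p = 0.268), and the transcription factor EGR2 (1.35) was tested through the labelled KO group alone. Without EGR2, 7 of 31 were higher, with a median of 0.13. Without Scr16 replicate 1 the counts were 8 higher and 2 lower.

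Chemokines, cytokines and their receptors had 6 of 21 higher, and 3 lower, TNFRSF1A, IL11RA and CNTFR. LIF, a cytokine of the interleukin-6 family, had between 6.80 and 12.1 normalized CPM against between 0.570 and 3.74 (1.68), and OSMR, a receptor chain for oncostatin M, was higher (1.23). CXCL12 and OSMR were tested through the labelled KO group alone, and without them 4 of 19 were higher, with a median of 0.03. Of the 6 higher calls, 2 were left when every library had to hold at least 10 reads, 1 without clone KO11 and 2 without clone KO28. TNFRSF1A, the main receptor for tumour necrosis factor, had between 1.07 and 2.55 against between 4.35 and 12 (-1.35). Interferon-stimulated and nucleic acid sensing genes had 3 of 23 higher and 2 lower, and 1 lower without any 1 Scr library. PARP14 had at most 0.126 normalized CPM in labelled KO, with at most 3 reads in each library, and between 2.21 and 3.71 in Scr (-1.98), and was tested through the Scr group alone. The transcription factor IRF1 was called higher (1.44) but lost its call under 5 of 23 alternatives, DESeq2 and leaving out either labelled KO clone among them (highest adjusted p = 0.144), and 22% of its exonic bases lie opposite other genes. None of 9 MHC class I presentation genes was called by limma or edgeR, and 1 had an unadjusted p under 0.05 with limma.

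Neuronal gene groups were mixed. The neuronal cytoskeleton had 4 of 29 higher and 6 lower. DCX, a microtubule protein of migrating neurons, had between 159 and 199 normalized CPM against between 79.1 and 111 (0.89), and its relative DCLK1 (0.93) and DPYSL3 (0.96) rose with it. The neurofilament genes NEFH (-0.84), NEFM (-0.38) and NEFL (-0.29) fell beside PRPH. Granins, neuropeptides and their processing enzymes had 5 of 15 higher and 3 lower. CRH, the corticotropin-releasing hormone, had between 16.0 and 21.6 against between 2.27 and 7.48 (1.61) and VIP between 79.9 and 95.9 against between 41.6 and 53.6 (0.86), whereas GAL (-0.88), NMU (-1.01) and NPY (-0.62) were lower.

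Catecholamine enzymes and transporters had 1 of 16 higher and 2 lower. GCH1, which makes the cofactor of TH, had between 35.9 and 46.1 normalized CPM against between 53.9 and 77.0 (-0.67), and the calls of PNMT and SLC18A1 were lost without KO11 replicate 1 (adjusted p = 0.0866 and 0.0649, limma). Synaptotagmins, SNAREs and synaptic vesicle proteins had 6 of 70 higher and 5 lower, a share of 15.7% beside 8.69% over all genes tested. Without SYT12, which was tested through the labelled KO group alone, 5 of 69 were higher. UNC13D, which primes granules for release, had between 75.3 and 83.5 against between 176 and 231 (-1.27 ± 0.09, SE; adjusted p = 1.98e-09, limma), and SV2C was lower (-0.64), whereas SYT8 (2.14) and SYT12 (1.68) were higher at low levels. Neurotransmitter receptors had 3 of 44 higher, with ADRA2A (1.76) and GRIK3 (1.38), and 4 lower, with CHRM2 (-0.93), a share of 15.9%. The lower count was 2 without KO11 replicate 1.

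Ion channels and calcium handling showed single-gene changes. None of the 9 tested TRP channel genes was called by limma or edgeR, and 1 had an unadjusted p under 0.05 with limma. Of 36 genes for calcium pumps, stores and sensors, 2 were higher and 4 lower, a share of 16.7%. The lower ones included the calcium release channels RYR2 and ITPR3, the latter with between 5.56 and 10.9 normalized CPM against between 19 and 36 (-1.42). The related channels RYR1, RYR3, ITPR1 and ITPR2 were not called. The 4 lower calls became 2 without KO11 replicate 1, KO28 replicate 2, Scr13 replicate 1 or Scr16 replicate 2. The 2 higher ones became 1 without KO11 replicate 2 and 3 without KO28 replicate 1 or Scr13 replicate 2. Voltage-gated sodium and calcium channels had 4 of 26 higher and 3 lower, with SCN9A, a sodium channel of sensory and sympathetic neurons, between 64.7 and 91.1 against between 32.3 and 44.6 (0.96), and 2 higher without KO11 replicate 1 or Scr16 replicate 2. Potassium channels had 4 of 44 higher, KCNJ3 (1.44) and KCNK6 (1.32) among them, and 2 lower, with KCNH1 (-0.97), which shares 53% of its exonic bases with other genes, and between 1 and 3 lower without 1 library. The share of potassium channels called was 13.6%, beside 8.69% over all genes tested. Shares near the background of 8.69% were those of calcium-dependent kinases and calcineurin, with 2 of 20 higher (10.0%), and of regulators of G protein signalling and phosphodiesterases, with 2 of 36 higher and 1 lower (8.33%), with RGS16 at 1.37 and RGS11 at -1.61; without 1 library the latter list had between 1 and 3 higher and 1 or 2 lower.

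**Figure D4:**
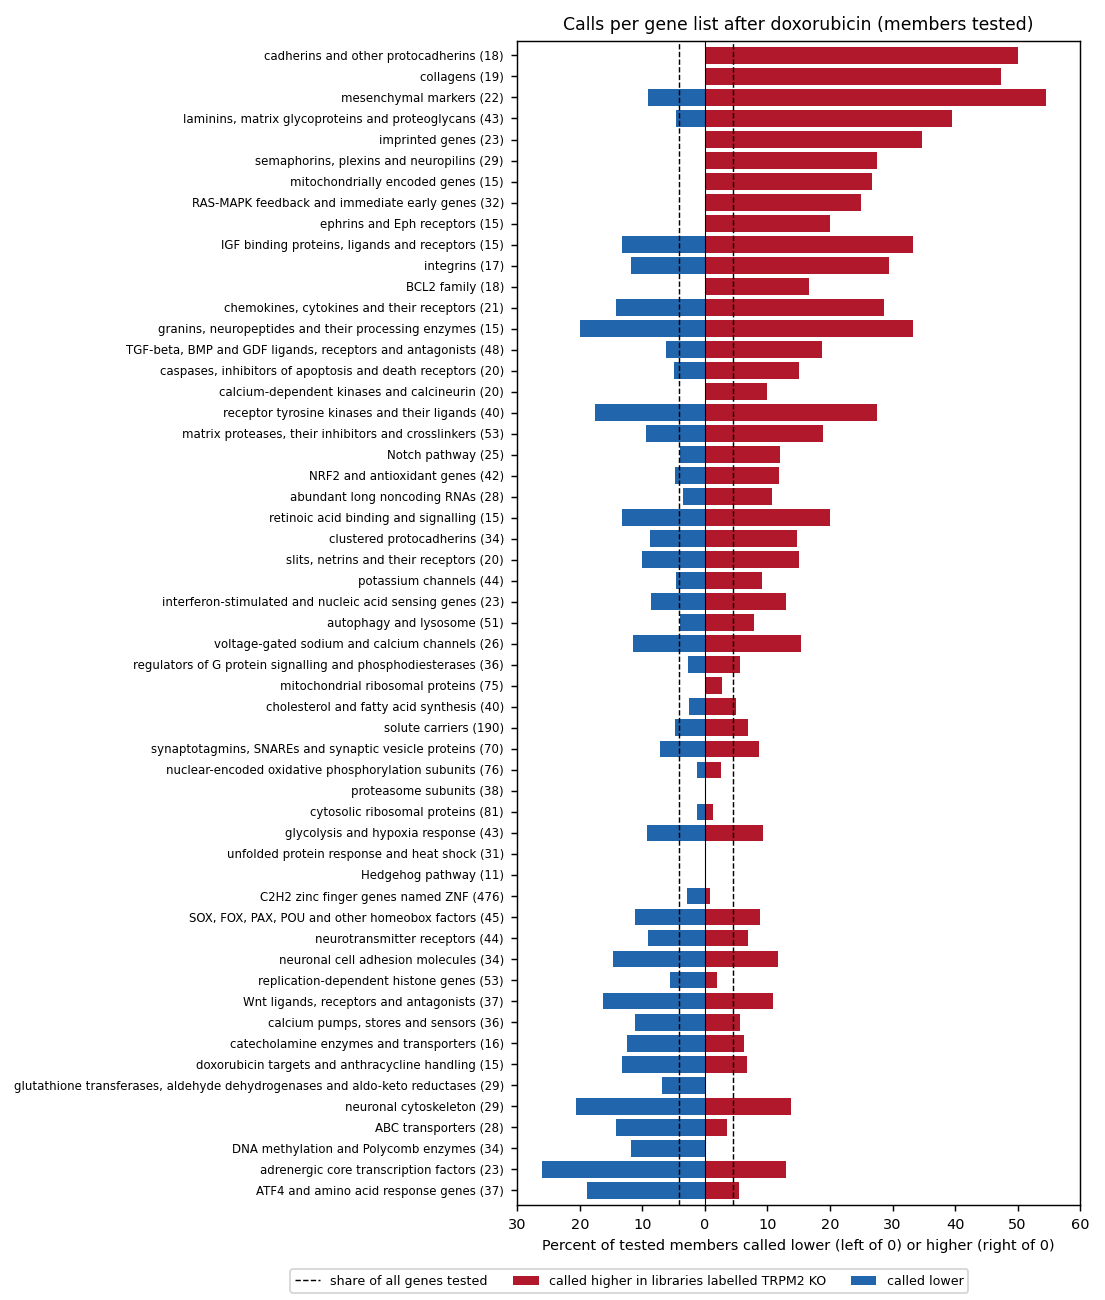
Share of tested members called higher (red) or lower (blue) after doxorubicin in each list with at least 10 tested members, given in parentheses, ordered by the difference of both shares. Dashed lines mark the shares over all genes tested, 4.52% higher and 4.17% lower, which the adhesion and matrix lists at the top pass on the higher side and the proteasome and ribosomal protein lists do not reach.

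Lists of protein synthesis, turnover and respiration had shares of calls below the background of 8.69%. No proteasome subunit of 38 and no unfolded protein response or heat shock gene of 31 was called by limma or by edgeR, and 2 and 7 of them, all higher, had an unadjusted p under 0.05 with limma. Cytosolic ribosomal proteins had 1 of 81 higher and 1 lower, mitochondrial ribosomal proteins 2 of 75 higher, and nuclear-encoded oxidative phosphorylation subunits 2 of 76 higher and 1 lower. These are shares of 2.47%, 2.67% and 3.95%, and without 1 library each of these counts lay between 0 and 2. The mitochondrially encoded genes differed from that, with 4 of 15 higher and a median of 0.31. MT-ND5, a subunit of complex I, had 2156 and 1371 normalized CPM in KO11, 2103 and 1848 in KO28, and between 1065 and 1321 in Scr (0.61 ± 0.12, SE; adjusted p = 0.00114, limma). The summed level of these genes was between 54334 and 83149 normalized CPM in labelled KO and between 48958 and 58088 in Scr, so the groups overlapped. The 4 calls became 2 without KO11 replicate 1, KO28 replicate 1 or Scr16 replicate 2, and 8 without KO11 replicate 2, the lowest of the labelled KO libraries. MT-ND5, MT-CO1, MT-CO2 and MT-CO3 each lost their call with limma without an abundance trend, without a filter on low values and without clone KO28.

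ATF4 and amino acid response genes had 7 of 37 lower and 2 higher, and 1 higher without either KO11 library, KO28 replicate 1, Scr13 replicate 1 or Scr16 replicate 1. ALDH1L2, a mitochondrial folate enzyme, had between 3.59 and 7.78 normalized CPM against between 17.5 and 23.6 (-1.61), and the serine synthesis enzymes PHGDH (-0.48) and PSAT1 (-0.52) were called too, but PSAT1 lost its call without KO11 replicate 1, KO28 replicate 1, Scr13 replicate 1 or Scr16 replicate 2 and without each of the 4 clones, and PHGDH without KO11 replicate 1 or Scr16 replicate 2. The 7 lower calls became 2 without KO11 replicate 1 or without Scr16 replicate 2. NRF2 and antioxidant genes had 5 of 42 higher and 2 lower, with NQO1, a quinone reductase, between 16.4 and 27.5 against between 7.13 and 13.6 (1.09) and GPX8 without a read in Scr. Those 5 became 1 without KO11 replicate 1 or KO28 replicate 2, 2 without KO11 replicate 2 and 3 without either Scr16 library. The 2 lower calls became 1 without KO28 replicate 2. Without GPX8, which was tested through the labelled KO group alone, 4 of 41 were higher. Glycolysis and hypoxia genes had 4 of 43 in each direction, with the hypoxia-inducible factor EPAS1 higher (0.67) and the glucose transporter SLC2A1, between 103 and 125 against between 155 and 185, lower (-0.55). The 4 lower calls became 1 without KO11 replicate 1 and 2 without either KO28 library, Scr13 replicate 1 or Scr16 replicate 2, and the 4 higher ones 2 without KO28 replicate 2. Cholesterol and fatty acid synthesis had a share of 7.5%, below the background of 8.69%, with 2 of 40 higher, STARD4 (0.54) among them, and 1 lower, SCD (-0.39), and 1 higher without KO11 replicate 1 and 2 lower without KO11 replicate 2 or Scr16 replicate 1. Autophagy and lysosome genes had 4 of 51 higher, with the receptor SQSTM1 at 0.46, and 2 lower, a share of 11.8% beside the background of 8.69%. The 4 became 2 without KO11 replicate 1 or KO28 replicate 2, and the 2 became 0 or 1 without any 1 library.

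Transporters include the pump that exports doxorubicin. ABCB1, P-glycoprotein, had 172 and 202 normalized CPM in KO11, 200 and 198 in KO28, 297 and 323 in Scr13 and 346 and 422 in Scr16 (-0.83 ± 0.09, SE; adjusted p = 1.83e-06, limma). Its groups did not overlap, and without treatment the log2 difference was -0.98. Of 28 tested ABC transporters, 4 were lower, ABCB1, ABCD2, ABCG1 and ABCA12, and this count was 4 without any 1 library, while ABCC3 was higher (2.05) and was not tested without a labelled KO library, and 3 were higher without either Scr13 library. The lower count was 3 with the mean of each clone and 2 without clone KO28. ABCG1 lost its call under 5 of 24 alternatives, the mean of each clone among them. Among 15 doxorubicin targets and handling genes, ABCB1 and TOP2A were lower and NQO1 higher. TOP2A, the enzyme trapped by the drug and itself a cell cycle gene, had between 605 and 691 against between 812 and 935 (-0.41). Solute carriers had 13 of 190 higher and 9 lower, a share of 11.6% beside the background of 8.69%, with the zinc exporter SLC30A1 at 0.67. The counts of 13 and 9 became 6 and 4 without KO11 replicate 1 and 7 and 4 without KO11 replicate 2. Glutathione transferases, aldehyde dehydrogenases and aldo-keto reductases had 2 of 29 lower, a share of 6.9% beside the background of 8.69%, and 5 without Scr16 replicate 1.

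Zinc finger and homeobox genes are regulators of transcription. Of 476 C2H2 zinc finger genes named ZNF, 4 were higher and 14 lower, which is 3.78% and below the background of 8.69%, and without 1 library between 6 and 12 were lower and between 1 and 7 higher, the ends being KO28 replicate 1 and Scr13 replicate 2 for the higher ones. ZNF229 had between 1.91 and 3.99 normalized CPM against between 12.7 and 25.5 (-2.46), ZNF662 at most 1.09 against at least 4.09 (-2.14) and ZNF135 at most 0.299 against at least 2.90 (-2.09). A part of ZNF135's exonic bases (32.6%) lies opposite another gene. Among SOX, FOX, PAX, POU and other homeobox factors, 4 of 45 were higher and 5 lower, and 3 lower without KO11 replicate 1. POU4F2, a sensory neuron factor, had between 9.51 and 12.8 against at most 1.39 (2.83), and SOX9, a factor of neural crest and cartilage, between 10.0 and 21.3 against between 1.69 and 4.28 (2.25). FOXI3 (1.56) and POU3F3 (1.21) completed the higher ones. POU3F3 was tested through the labelled KO group alone, and without it 3 of 44 were higher. HOXD8 (-0.81) and HOXD9 (-0.62) were lower among 9 HOX genes, and SYCP2 (-1.13) and MAGEC1 (-0.68) among 8 cancer-testis antigens.

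Imprinted genes, which are expressed from 1 parental copy, had 8 of 23 higher and none lower, with a median of 0.33. MEST had between 5.08 and 7.68 normalized CPM against between 0.126 and 3.23 (1.79) and shares 27.4% of its exonic bases with opposite-strand genes, and SNHG14 had between 53.9 and 63.8 against between 33.9 and 42.3 (0.64). Between 6 and 8 were called without 1 library. DNA methylation and Polycomb enzymes had 4 of 34 lower, a share of 11.8% beside the background of 8.69%. Among them UHRF1 (-0.46) kept its call without any 1 library, and PHF19 and DNMT1 did not. Between 1 and 4 were called without 1 library. Replication-dependent histone genes had a median of -0.28, with 1 of 53 higher and 3 lower, a share of 7.55%, and these 3 became 9 without Scr13 replicate 1. H3C4 shares all of its exonic bases with a second gene model. Of 28 abundant long noncoding RNAs, 3 were higher, with NORAD at 0.37, and OIP5-AS1 lower, which lost its call without KO11 replicate 1, KO28 replicate 2 or Scr13 replicate 1, while 5 were higher without Scr13 replicate 1.

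Retinoic acid genes had 3 of 15 higher and 2 lower, and 2 of 14 higher without NRIP1, which was tested through the labelled KO group alone. Besides CRABP2, ALDH1A3, an enzyme that makes retinoic acid, had between 3.84 and 5.12 normalized CPM against between 8.11 and 11.7 (-1.05), whereas RDH10, which makes its precursor, was higher (1.11). NRIP1, a corepressor of nuclear receptors, had no read in Scr. In the survival lists, the BCL2 family had 3 of 18 higher, PMAIP1 (0.76), BAX (0.58) and BCL2L1, the last of which lost its call without Scr13 replicate 1 or 4 other single libraries. Of 20 caspases, inhibitors of apoptosis and death receptors, FAS (0.96), TNFRSF10B (0.54) and TNFRSF21 were higher. CFLAR, which blocks caspase-8 at death receptors, was lower, with between 5.62 and 8.75 against between 17.9 and 29.1 (-1.51 ± 0.19, SE; adjusted p = 1.03e-05, limma). BAX, PMAIP1, FAS and TNFRSF10B are also p53 targets.

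Some other genes named above were called less firmly. ADAMTS20 and PNMT were not called with edgeR. The calls of ADAMTS20, SERPINA5, ITGB5, NRTN, IL11RA, NEFM, NEFL and TNFRSF21 were each lost without at least 1 single library. Because no strand setting is known, reads of genes that overlap others cannot be assigned to 1 of them with certainty. Such overlaps cover 43% of the exonic bases of BCL2L1, 38.9% of NEFM, 36.8% of CADM3, 30.1% of ACTA2, 28.6% of ALDH1A3, 24.4% of VIM and 22% of SQSTM1.

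The same labels were compared without treatment, where 695 of 14364 genes tested (4.84%) were called. Of the genes called after doxorubicin, 1223 were tested there, 474 of them were called and 1140 had the same sign. The median size of the log2 difference of the 1223 was 0.34 without treatment beside 0.61 after the drug. These 1223 were chosen by the values after the drug, so both medians are descriptions, and the same 4 clones supplied both conditions. Without treatment, the mesenchymal markers had 10 of 22 tested members higher and 2 lower, with a median of 0.52. The collagens had 7 of 17 higher and 1 lower (median 0.61), and the cadherins 6 of 16 higher and none lower (0.18). Laminins, matrix glycoproteins and proteoglycans had 12 of 43 higher and 1 lower (0.18). Whether a difference changed with treatment was tested as an interaction over all 16 libraries, on CPM recomputed from the reads with 1 normalization. Levels with and without treatment set side by side here come from tables that the authors normalized separately. Of 15325 genes, 3 (0.0196%) passed an adjusted p of 0.05 with limma and 1147 had an unadjusted p under 0.05. The 3 calls ranged from 1 to 6 when 1 of the 16 libraries was left out. One is the p53 target TP53I3, and the other two are CXCL12 and SLIT1.

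CXCL12 was higher in labelled KO in both conditions, by 1.12 ± 0.26 (SE) without treatment and 3.11 after doxorubicin on the log2 scale. The difference grew by 1.99. In this test too, the labelled KO libraries alone carried CXCL12 past the filter on low values, so its p is not given. Scr values of CXCL12 after doxorubicin lay around the floor of 3 reads, so the size of this change is uncertain. Untreated libraries held between 2.33 and 4.69 normalized CPM in labelled KO and between 0.568 and 1.78 in Scr, so its level was higher after the drug in labelled KO and lower in Scr. SLIT1, a secreted guidance cue, had between 77.5 and 90.4 normalized CPM in untreated labelled KO and between 79.2 and 102 in untreated Scr, where the groups overlapped. After doxorubicin it had between 65.0 and 71.2 against between 103 and 133, and the difference changed by -0.70 (adjusted p = 0.033, limma). For CCL2 and SOX9, the untreated log2 differences were 0.94 and 0.47, neither of them called, but the interaction was not called either.

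**Figure D5:**
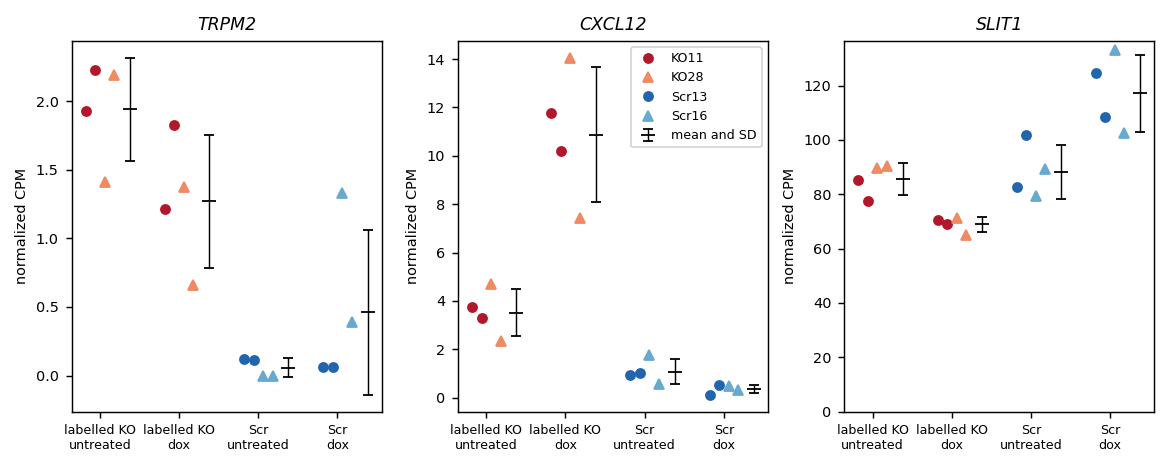
Normalized CPM of TRPM2, CXCL12 and SLIT1 in the 16 libraries, with 1 point per library coloured by clone and, beside the points of each group, its mean and SD (n = 4). TRPM2 is higher in the libraries labelled TRPM2 KO without treatment, CXCL12 separates most after doxorubicin, and SLIT1 separates in that condition but not without the drug.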

How the data were processed

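The authors demultiplexed reads with bcl2fastq, aligned them to GRCh38 with HISAT2 2.1.0, counted them with HTSeq and normalized with edgeR, per the labels. The annotation release and strand setting are not given in the sources used here. The deposited values are a signal per gene, normalized CPM, for 26410 genes in each of 2 tables. Every deposited value was a whole multiple of 1 step per library, so whole reads were recovered for 100% of values (tolerance 0.01 reads). No value column lacked a sample (0). The authors' columns of fold changes and p-values for their own comparisons were not used. A gene was tested where 4 or more of the 8 libraries reached 1 normalized CPM, on log2(normalized CPM + 1) with limma 3.58.1 (abundance trend, two-sided, R 4.3.3), with Benjamini-Hochberg adjustment over all genes tested and a threshold of 0.05. Alternatives included edgeR 4.0.16 and DESeq2 1.42.0 on the recovered reads, other pseudocounts, filters and scalings, the mean of each clone in place of its 2 replicates, and leaving out libraries and clones. The procedure was tested on simulated data. The study describes the 2 replicates of a clone as biological; they share the clone, so p-values measure the spread between 4 libraries of 2 clones.

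The members and lists were chosen with earlier results of these data known. Genes named were the 12 largest rises and 12 largest falls among called genes with non-overlapping groups and a mean of at least 5 normalized CPM in the higher group, outside the cell cycle and p53 target lists; up to 4 called members with the largest differences in each list with at least 3 calls; TRPM2; the genes past the interaction threshold; and cell type markers. Other list members named were chosen after their values were seen. TRPM2-AS, SOX10, PECAM1, PTPRC, CD68 and PRRX1 were not analysed here. Some genes that the rule names are not reported here. Gene positions are those of GENCODE 29, which named 95.9% of identifiers, and promoters those of RefSeq.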

Additional observations from a re-analysis of the deposited data

Results flagged for a closer look

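In 26 of 392 groups of 4 libraries tested, 1 library lay far from the other 3, with a gap to its nearest neighbour that was a large part of the group's whole range; chance gives about 1 in 20. The gap is given as a ratio to that range. Among the labelled TRPM2 KO libraries, the ratio was 0.87 for ABCB1, 0.858 for CACNG8, 0.837 for CCN1, 0.908 for CRABP2, 0.966 for IGF2, 0.982 for NRP1, 0.88 for OAS1, 0.857 for POU3F3 and 0.878 for YAP1. Among the Scr libraries, the ratio was 1 for CAPN6, COL13A1, IGF2BP2 and SYT12, each of which had reads in a single Scr library. It was 0.887 for CAT, 0.857 for FUCA2, 0.985 for KCNJ12, 0.873 for MT-CO2, 0.947 for S100A11, 0.938 for S100A6 and 0.967 for SERPINE2. For SLC30A1 it was 0.932, for SLC6A9 0.901, for SOX9 0.872, for TM7SF2 0.965, for TNFRSF1A 0.924 and for ZNF135 0.852.

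The difference between the labels itself changed with doxorubicin for CXCL12, by 1.99, and for SLIT1, by -0.705, on the log2 scale in the interaction test (adjusted p = 0.033 for SLIT1, limma). The p of CXCL12 is not given, because the labelled KO libraries alone carried it past the filter on low values.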

How the results depend on the processing

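The 1266 calls became 775 with limma without an abundance trend, 733 at an adjusted p under 0.01, 510 without clone KO11 and 575 without clone KO28, and ranged from 814 to 1314 without 1 library. With the mean of each clone in place of its 2 replicates, 1049 genes were called. Without a filter on low values 850 genes were called among 25326 tested, and with DESeq2 1457. The 3 interaction calls became 5 with clone as a fixed block, 5 without a filter and ranged from 1 to 6 without 1 library. With a replicate block, 1365 genes were called after doxorubicin and 7 in the interaction. Within a label, deviations from the mean of 4 are pulled below 0 by the centring (same number, -0.499 to -0.101; different number and clone, -0.538 to -0.323) and decide little. Between labels, correlations were between 0.00348 and 0.0657 for the same number and between -0.0606 and 0.0154 for different numbers. None reached 0.1 and no source says what a number marks, so the libraries are taken to share only a number. In labelled KO, the summed level of ribosomal proteins was 44250 and 43906 normalized CPM in replicate 1 and 53881 and 53821 in replicate 2, and in Scr 53446 and 52759 in replicate 1 and 46184 and 51854 in replicate 2, so the direction between the numbers was opposite in the labels. Of 194 named genes called, 168 were tested without each of the 8 libraries and 127 of these kept their call each time; the other 26 missed the filter on low values in some of these fits, which left 41 called genes untested without any 1 labelled KO library and 25 without any 1 Scr library. Without 1 clone at a time, 75 of the 194 lost their call in at least 1 fit that tested them. No named gene changed direction under the alternatives run. Depth limits genes near the floor of 3 reads, such as TRPM2 and TH.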
